A study of Mus musculus with 14 samples.

Results

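This report describes 10 mouse genes of nicotinamide adenine dinucleotide (NAD) salvage, clearance and use in the pressure-overloaded ventricle: Nmrk2, Nmrk1, Nampt, Nmnat1, Nmnat3, Nnmt, Cd38, Parp1, Sirt1 and Sirt3. They are 10 of the 24972 genes listed in the deposited table, and all 10 passed the filter on low values that left 13212 genes for testing. Nmrk2 was chosen by measured values, namely for its steep rise from sham hearts with transaortic constriction (TAC) and its lower values in TAC hearts given JP2NT. Values of all 4 groups thus took part in its choice, and they are described and not tested. The other 9 were listed for their place in NAD metabolism.

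All mice were male C57BL/6N, had surgery at 9 to 10 weeks of age, received an AAV2/9 vector by tail vein 2 weeks later (1e12 vector genomes in 100 ul), and were sampled 8 weeks after surgery. The TAC+JP2NT group (4 libraries) had TAC surgery, which narrows the aorta and overloads the left ventricle, and AAV2/9-JP2NT. The TAC+GFP group (4 libraries) had TAC and AAV2/9-GFP. The Sham+JP2NT group (3 libraries) had sham surgery and AAV2/9-JP2NT, and the Sham+GFP group (3 libraries) had sham surgery and AAV2/9-GFP. JP2NT is an N-terminal fragment of junctophilin-2, a protein that tethers the sarcoplasmic reticulum to the T-tubule in cardiomyocytes. Every mouse thus carried a vector, and the promoter that drives the vector's insert is not given in the sources used here. TAC mice were admitted to the experiment with an ejection fraction of 40 to 60% before the vector was given, so hearts outside that range are not represented.

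NAD carries electrons in fuel oxidation and is also a substrate that enzymes consume. The heart refills its NAD pool mostly by salvage. NAMPT turns nicotinamide into nicotinamide mononucleotide (NMN), the NMRK kinases make NMN from nicotinamide riboside, and the NMNAT enzymes turn NMN into NAD. CD38, PARP1 and the sirtuins split NAD and release nicotinamide, and NNMT methylates nicotinamide so that it leaves the cycle. Lower Nampt together with higher Nmrk2 has been described before in failing mouse hearts.

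The genes lie on 8 chromosomes, and the 2 kinase paralogs are on different ones. In GRCm38, Nmrk2 is on the minus strand of chromosome 10 from 81198170 to 81202051 and Nmrk1 on the plus strand of chromosome 19 from 18631950 to 18652428. The 300 bases around each start site are shown because these 2 genes encode enzymes of the same reaction and had unlike values after TAC. The windows come from RefSeq (GRCm38.p6), run 5′ to 3′ on the gene's strand from 250 bases before to 50 bases after the start, and cover chr10:81201988-81202287 (minus strand) and chr19:18631766-18632065 (plus strand). Capitals mark TATAAA.
Nmrk2: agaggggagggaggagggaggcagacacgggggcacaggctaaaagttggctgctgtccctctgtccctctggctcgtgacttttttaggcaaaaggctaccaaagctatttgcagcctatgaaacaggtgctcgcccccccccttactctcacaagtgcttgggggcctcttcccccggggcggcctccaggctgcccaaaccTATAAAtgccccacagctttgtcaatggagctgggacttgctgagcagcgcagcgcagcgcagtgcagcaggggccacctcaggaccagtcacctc
Nmrk1: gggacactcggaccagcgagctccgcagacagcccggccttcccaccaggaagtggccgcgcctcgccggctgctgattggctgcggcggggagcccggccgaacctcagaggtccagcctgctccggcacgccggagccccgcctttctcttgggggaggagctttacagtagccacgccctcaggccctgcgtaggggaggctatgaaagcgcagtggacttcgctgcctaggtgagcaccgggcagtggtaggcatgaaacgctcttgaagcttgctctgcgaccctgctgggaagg

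Windows of this kind were available for 9 of the 10 genes. In the Nmrk2 window TATAAA ended 41 bases upstream of the RefSeq start, and the letters CANNTG occurred as CAGGTG and CAAGTG. The Nmrk1 window held neither on either strand. GGAATG and AGGTCA were searched on both strands as well and occurred in neither window. Among 32851 mouse promoter windows of the same length, 13.6% held TATAAA, 72.3% held CANNTG, 14.7% held GGAATG and 16.3% held AGGTCA. These are matches of letters and say nothing of the factors that bind such motifs.

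Polyadenylated RNA was sequenced as stranded paired-end libraries, with an estimated 8650190 to 14460600 reads each. Values below are the deposited scaled counts after joint rescaling of all libraries, called normalised values. In Sham+JP2NT, libraries 1 and 2 were nearly identical, with 1.34 times the counting variance over genes of at least 1000 reads, against 3.45 to 32.7 times for the 17 other pairs within groups. They were averaged and counted as 1 sample, which leaves n = 2 for Sham+JP2NT means although all 3 library values are given. All 8 cardiomyocyte markers were detected, and their summed value was 755254 to 974421 in TAC+JP2NT libraries and 634195 to 778723 in TAC+GFP libraries, against 1256520 to 1266390 in Sham+JP2NT and 1259470 to 1281700 in Sham+GFP libraries. Of the 8, 5 were lower in TAC+JP2NT than in Sham+JP2NT and 6 in TAC+GFP than in Sham+GFP. Among all genes tested the shares called as lower were 15.8% and 24.8%. Over all libraries Myh6 ran from 144238 to 495427, Atp2a2 from 102302 to 254872 and Actc1 from 139322 to 241307. Myl2 ran from 85290 to 124588, Pln from 35799 to 61585.5, Tnni3 from 32420 to 60052 and Ryr2 from 13303 to 21078. Tnnt2 stayed at 59883 to 73087. The 6 smooth muscle and pericyte markers summed to 11517 to 14044 in TAC+JP2NT libraries and 8874 to 10647 in TAC+GFP libraries, against 14823 to 15870.5 in Sham+JP2NT and 14056 to 15039 in Sham+GFP libraries. The part of either cell type in the members' values below was not tested. The Jph2 value, 6061 to 6759 in TAC+JP2NT libraries and 5889 to 6618 in TAC+GFP libraries, did not separate the vectors after TAC. In sham libraries it was lower with JP2NT, at 6820 to 7157 in Sham+JP2NT and 7649 to 8187 in Sham+GFP. With Sham+JP2NT replicates 1 and 2 averaged, 29.9% of all genes tested had sham groups that did not overlap. Jph2 thus checks no vector label. In bulk tissue fewer cells of a type and less RNA per cell cannot be told apart.

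Nmrk2, which phosphorylates nicotinamide riboside and is best known from striated muscle, had normalised values of 378, 294, 486 and 293 in the TAC+JP2NT libraries. It had 2476, 3047, 319.6 and 4203 in the TAC+GFP libraries, in order of replicate number. In Sham+JP2NT libraries it had 31.7, 44.9 and 38.5, and in Sham+GFP libraries 38.1, 52.8 and 37.8. Every TAC library was above every sham library. TAC+GFP replicates 1, 2 and 4 were above all TAC+JP2NT libraries, while TAC+GFP replicate 3 lay inside the TAC+JP2NT range.

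**Figure D1:**
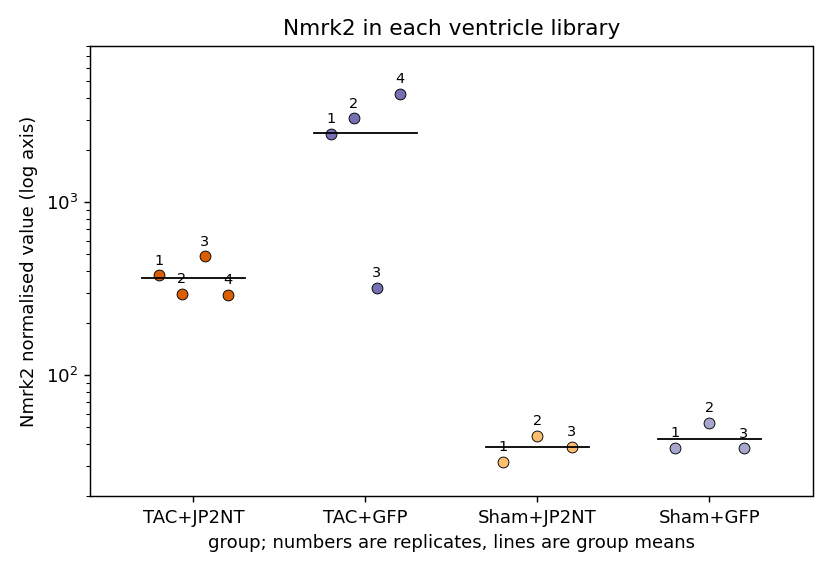
Nmrk2 normalised value (log axis) in each of the 14 libraries, by group. Numbers are replicates and lines are group means. The TAC+JP2NT libraries lie between 293 and 486, and TAC+GFP replicate 3 (319.6) sits among them, apart from the other TAC+GFP libraries (2476 to 4203).

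On the log2(value + 1) scale Nmrk2 was 5.36 higher in TAC+GFP than in Sham+GFP, a 41.2-fold difference. Without TAC+GFP replicate 3 the difference was 6.19, or 73.1-fold. Replicate 3 alone was 2.89 above Sham+GFP, or 7.40-fold. Under JP2NT the difference between TAC and sham was 3.17, or 9.03-fold. TAC+JP2NT minus TAC+GFP was -2.33, or 5.02-fold lower, and without TAC+GFP replicate 3 it was -3.15, or 8.90-fold lower. TAC+JP2NT was 0.15 above TAC+GFP replicate 3 alone. The size of the difference between the vectors after TAC thus rests on the 3 other TAC+GFP libraries. The interaction of surgery and vector was -2.19 for Nmrk2, with no test because the gene was chosen for it.

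Nmrk2 varied more than most genes within TAC+JP2NT, TAC+GFP and Sham+GFP. Its SD of log2 values in TAC+JP2NT was 0.35, above that of 81.4% of the genes tested, whose median was 0.176. In TAC+GFP its SD was 1.68, above that of 99.7% of genes, with a median of 0.158. In Sham+GFP its SD was 0.27, above that of 84.2% of genes, with a median of 0.107. TAC+GFP replicate 3 was also low within its group in some other genes. Myh7, the slow myosin heavy chain, had 37317 to 57336 in TAC+JP2NT libraries, 58210 in TAC+GFP replicate 3 and 87889 to 95555 in TAC+GFP replicates 1, 2 and 4. Nppa, the atrial natriuretic peptide gene, had 20920 to 44184 in TAC+JP2NT libraries, 40750 in TAC+GFP replicate 3 and 83409 to 109360 in its group's other replicates. Nppb, the B-type peptide gene, had 12180.5 to 19091 in TAC+JP2NT libraries. It had 30893 in TAC+GFP replicate 3, inside the 27501 to 35204 of replicates 1, 2 and 4. The immediate early gene Egr1 had 168 to 284 in TAC+JP2NT libraries, 92.6 in TAC+GFP replicate 3 and 479 to 490 in replicates 1, 2 and 4. Egr1 is no overload gene here, with 410 to 495 in Sham+GFP libraries. The part of these differences in the Nmrk2 value was not tested.

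Between the sham groups the Nmrk2 values overlapped, and Sham+JP2NT minus Sham+GFP was -0.14, with no test. About 26.2 to 44.9 reads per sham library stand behind these values. An antisense gene, Atcayos, overlaps Nmrk2 on the opposite strand and had 11.7 to 40.3 in all libraries. Whether the authors counted by strand is not given in the sources used here, and without strand the reads of the 2 genes cannot be told apart. Of 7 skeletal muscle markers 5 stayed under 10 in every library, and their summed values were 7.47 to 19.9 in TAC+JP2NT libraries and 9.14 to 27.2 in TAC+GFP, against 19.6 to 24.2 in Sham+JP2NT and 9.08 to 30.4 in Sham+GFP.

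Nmrk1, the more broadly expressed kinase, did not share this pattern. It had 30.3, 40.0, 37.1 and 34.3 in TAC+JP2NT libraries and 30.4, 17.0, 37.9 and 34.6 in TAC+GFP libraries. It had 38.3, 39.1 and 21.3 in Sham+JP2NT libraries and 24.8, 25.3 and 19.9 in Sham+GFP libraries. The groups overlapped in each comparison, and TAC+GFP minus Sham+GFP was 0.30 (95% interval -0.28 to 0.88, adjusted p = 0.385). The interval allows a rise of up to 0.88 or a small fall.

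Levels of different genes were compared per kilobase of the principal annotated transcript (GENCODE M21). In TAC+JP2NT Nmrk2 ranked 3, at 196 ± 49.2 (SD, n = 4), behind Nampt at 423 ± 65.5 and Sirt3 at 392 ± 41.8, and beside Nmnat1 at 190.5 ± 13.6 within their spread. In TAC+GFP it had the highest mean, at 1355 ± 878 (SD, n = 4), ahead of Nampt at 387 ± 19.3. It did not lead in TAC+GFP replicate 3. There its normalised value was 319.6 for a transcript of 1854 bases, against 488 for Sirt3 with 1461 bases. It ranked 9 of 10 genes in both sham groups, at 20.7 ± 0.0835 in Sham+JP2NT (SD, n = 2) and 23.1 ± 4.62 in Sham+GFP (SD, n = 3), above Nmrk1 alone. The Sham+JP2NT SD sets the average of libraries 1 and 2 against library 3, so it does not measure the spread between libraries. The normalised values of Nmrk2 in those libraries spanned 31.7 to 44.9. In Sham+GFP its level and that of Sirt1, 26.6 ± 0.935, did not differ beyond their spread. Nampt led in Sham+JP2NT at 578 ± 62.3 and in Sham+GFP at 493 ± 38.5, where it did not differ beyond the spread from Sirt3 at 480.0 ± 50.8. Nmrk1 was lowest in every group, with 18.3 ± 2.12 in TAC+JP2NT its highest mean (SD, n = 4).

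The 9 other members were compared between TAC+GFP and Sham+GFP by limma with adjustment over all 13212 genes. In this comparison 1 member rose, 5 fell and 3 passed no test, while 48.1% of all genes tested were called, 23.3% as higher and 24.8% as lower. The share called among the members, 6 of 9, stands beside that high background. The median log2 difference of the 9 was -0.35, against -0.0040 over all genes. Under JP2NT, in TAC+JP2NT minus Sham+JP2NT, 1 of the 9 rose and 3 fell, with 31.9% of all genes called and a member median of -0.14. These 2 comparisons share no library. All 6 members called under GFP had the same sign under JP2NT and 4 were called there, while 95% of all 6354 genes called under GFP had the same sign and 55.2% were called.

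**Figure D2:**
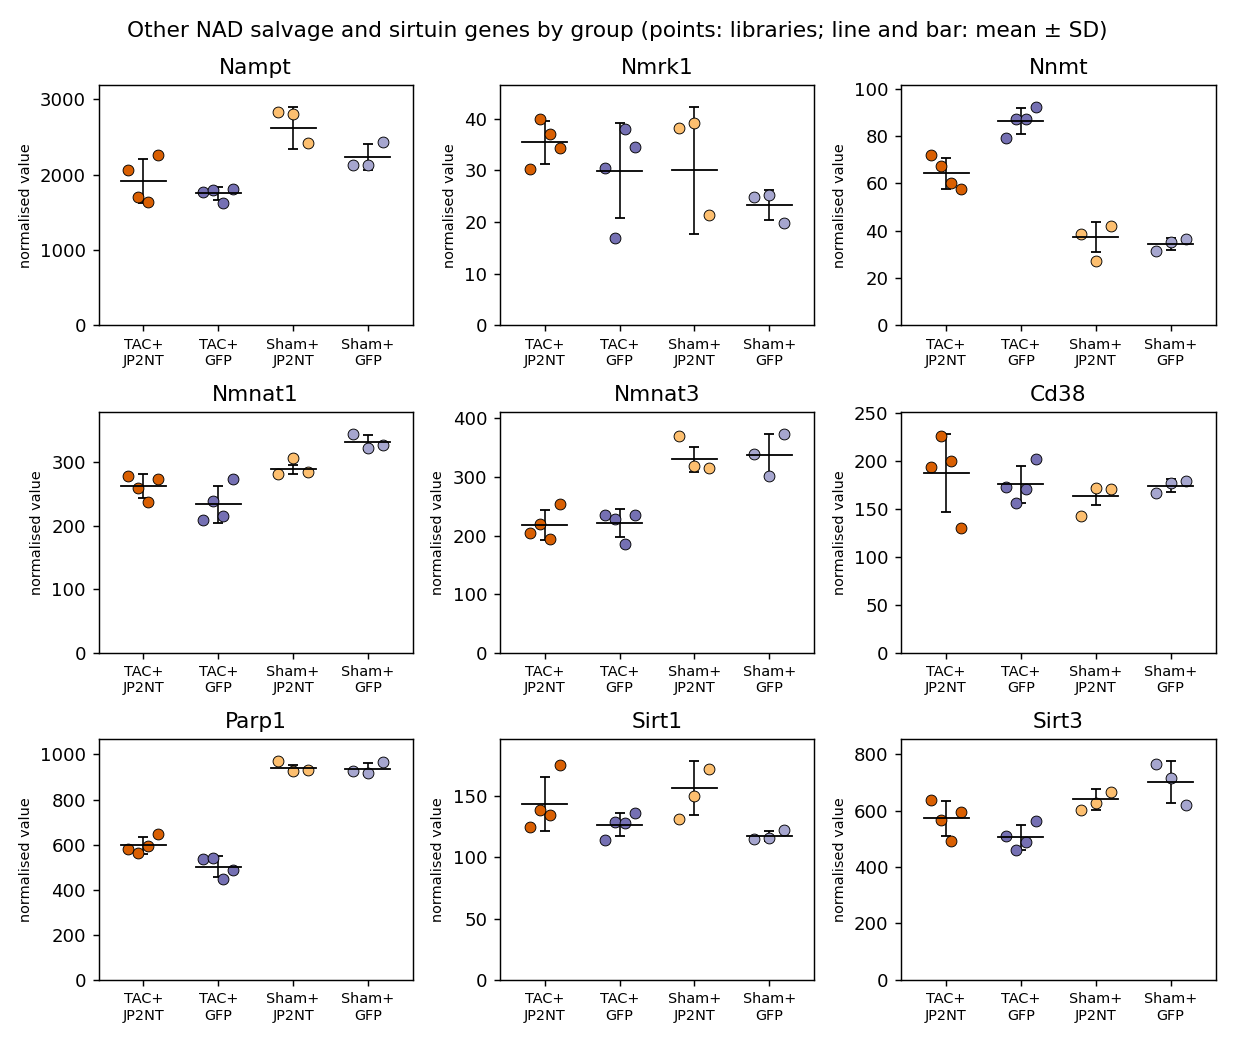
Normalised values of the 9 other genes in each library, with the mean and SD of each group. Nnmt was higher and Parp1, Nmnat3 and Nampt were lower in TAC than in sham libraries under both vectors, while Cd38 and Nmrk1 overlapped throughout.

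Nampt (chromosome 12, 32819545 to 32853349, plus strand) is the rate-limiting salvage enzyme. It had 2067, 1706, 1631 and 2257 in TAC+JP2NT libraries and 1774, 1801, 1621 and 1807 in TAC+GFP libraries. It had 2831, 2799.8 and 2417 in Sham+JP2NT libraries, against 2131, 2130 and 2432 in Sham+GFP libraries. All TAC libraries of each vector lay below the sham libraries of that vector, while 53.1% of all genes tested had groups that did not overlap under GFP and 49.6% under JP2NT. Nampt fell by 0.35 in TAC+GFP relative to Sham+GFP (95% interval -0.57 to -0.13, adjusted p = 0.0122) and by 0.46 in TAC+JP2NT relative to Sham+JP2NT (95% interval -0.71 to -0.21, adjusted p = 0.00905). Without Sham+GFP replicate 3 the difference under GFP was -0.28 with an adjusted p of 0.0673, so that call rested on that library.

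The NMNAT enzymes catalyse the last step to NAD, Nmnat1 (chromosome 4, 149467572 to 149485202, minus strand) in the nucleus. Nmnat1 had 279, 260.0, 237 and 273.5 in TAC+JP2NT libraries and 209.8, 238, 215 and 273.5 in TAC+GFP libraries, against 282, 307 and 284 in Sham+JP2NT libraries and 345, 323 and 327 in Sham+GFP libraries. It fell by 0.51 in TAC+GFP relative to Sham+GFP (95% interval -0.72 to -0.30, adjusted p = 0.000621). In TAC+JP2NT minus Sham+JP2NT it was -0.14 (95% interval -0.38 to 0.092, adjusted p = 0.347), although those groups did not overlap, as in 49.6% of all genes tested. The difference between these 2 effects was 0.37 with an unadjusted p of 0.0252 and an adjusted p of 0.356, so it did not pass. Nmnat1 also had a lower mean in Sham+JP2NT than in Sham+GFP (-0.20, adjusted p = 0.997), with no overlap between those groups, as in 29.9% of all genes tested.

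Nmnat3 (chromosome 9, 98287435 to 98420438, plus strand), assigned to mitochondria, had 205, 220.3, 193 and 254 in TAC+JP2NT libraries. It had 234, 228, 185 and 235 in TAC+GFP libraries. Sham+JP2NT libraries had 371, 318 and 315, and Sham+GFP libraries 338, 302 and 373. No TAC library overlapped a sham library. Groups did not overlap in 53.1% of all genes tested under GFP and in 49.6% under JP2NT. Nmnat3 fell by 0.61 in TAC+GFP relative to Sham+GFP (95% interval -0.86 to -0.37, adjusted p = 0.00055) and by 0.60 in TAC+JP2NT relative to Sham+JP2NT (95% interval -0.88 to -0.32, adjusted p = 0.00352). The vectors differed by -0.019 after TAC (95% interval -0.25 to 0.21). Other annotated genes overlap these loci: Gdap10 on the strand of Nampt, Gm28530 on the strand of Nmnat3 and Tmem274 on the strand opposite Nmnat1. Cd38, Parp1 and Sirt1, described below, also overlap other annotated genes. The part of such overlaps in the counts was not tested.

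Nnmt (chromosome 9, 48591877 to 48605153, minus strand), which methylates nicotinamide, moved in the opposite direction from Nampt, Nmnat1 and Nmnat3. It had 71.9, 67.5, 60.3 and 57.7 in TAC+JP2NT libraries and 79.0, 87.3, 87.4 and 92.3 in TAC+GFP libraries. Sham+JP2NT libraries had 38.8, 27.2 and 41.9, and Sham+GFP libraries 31.4, 35.3 and 36.6. All TAC libraries were above all sham libraries, and all TAC+JP2NT libraries were below all TAC+GFP libraries. Groups did not overlap in 53.1% of all genes tested under GFP, 49.6% under JP2NT and 10.7% between the vectors after TAC. Nnmt rose by 1.31 in TAC+GFP relative to Sham+GFP (95% interval 1.00 to 1.61, adjusted p = 6.77e-06) and by 0.77 in TAC+JP2NT relative to Sham+JP2NT (95% interval 0.42 to 1.12, adjusted p = 0.00300).

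Markers of activated fibroblasts moved with Nnmt. Their summed value was 2185 to 6132 in TAC+JP2NT libraries and 6160 to 11097 in TAC+GFP libraries, against 891 to 928 in Sham+JP2NT and 876 to 927 in Sham+GFP libraries. Of the 6 listed, 6 were higher in TAC+GFP than in Sham+GFP, beside 23.3% of all genes tested. In TAC+JP2NT relative to TAC+GFP 4 of the 6 fell, beside 3.28%. The summed value of 8 general fibroblast markers did not follow Nnmt. Under GFP this sum was 23971 to 29459 after TAC, overlapping the 23803 to 27795 of sham libraries. With JP2NT it spanned 26504 to 30059 after TAC, overlapping the sham range of 28709 to 32066. Of these 8, 4 rose and 1 fell after TAC under GFP, beside 23.3% and 24.8% of all genes. Under JP2NT 2 rose and 1 fell, beside 16.1% and 15.8%. After TAC, 0 of the 8 were called between the vectors, beside 6.02% of all genes. Adipocyte markers, from another tissue where Nnmt is abundant, summed to 5.38 to 188 in TAC+JP2NT libraries and 32.4 to 81.9 in TAC+GFP libraries, against 42.2 to 54.4 in Sham+JP2NT and 43.3 to 44.8 in Sham+GFP libraries. The 4 epicardial and mesothelial markers also rose after TAC, summing to 185 to 318 in TAC+JP2NT libraries and 275 to 431 in TAC+GFP libraries. In Sham+JP2NT libraries they summed to 147 to 167, and in Sham+GFP libraries to 156 to 195. Of the 4, 2 were higher under GFP and 1 under JP2NT, beside 23.3% and 16.1% of all genes. The part of these cells in the Nnmt values was not tested.

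Among the NAD consumers, Cd38 (chromosome 5, 43868553 to 43912375, plus strand), a membrane glycohydrolase found on many immune cells, passed no test. It had 194, 225, 200.0 and 129.9 in TAC+JP2NT libraries and 173, 156, 171 and 202 in TAC+GFP libraries. It had 142, 172 and 170.1 in Sham+JP2NT libraries and 167, 177 and 179 in Sham+GFP libraries. All groups overlapped. TAC+GFP minus Sham+GFP was 0.0049 (95% interval -0.32 to 0.33, adjusted p = 0.981) and TAC+JP2NT minus Sham+JP2NT was 0.17 (95% interval -0.20 to 0.53, adjusted p = 0.493). The difference under JP2NT depended on TAC+JP2NT replicate 4, the lowest library, without which it was 0.33 with an adjusted p of 0.0415. Summed macrophage and monocyte markers were 3349 to 6319 in TAC+JP2NT libraries and 4476 to 5729 in TAC+GFP, against 3949 to 4260 in Sham+JP2NT and 4281 to 4556 in Sham+GFP libraries.

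Parp1 (chromosome 1, 180568924 to 180601254, plus strand), the main DNA damage-activated poly-ADP-ribose polymerase, had 581, 562, 594 and 649 in TAC+JP2NT libraries. It had 535, 542, 446 and 486 in TAC+GFP libraries. Sham+JP2NT libraries had 970.5, 927 and 930.0, and Sham+GFP libraries 924.5, 919 and 966. All TAC libraries lay below all sham libraries, and all TAC+JP2NT libraries lay above all TAC+GFP libraries. The shares of all genes tested without overlap were 53.1% under GFP, 49.6% under JP2NT and 10.7% between the vectors after TAC. Parp1 fell by 0.90 in TAC+GFP relative to Sham+GFP (95% interval -1.07 to -0.74, adjusted p = 8.8e-07) and by 0.66 in TAC+JP2NT relative to Sham+JP2NT (95% interval -0.84 to -0.47, adjusted p = 0.000152). In Sham+GFP its SD of log2 values, 0.040, was the lowest of the 10 genes.

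Sirt3 (chromosome 7, 140863666 to 140882309, minus strand), the main mitochondrial deacetylase, had 636, 568, 492 and 595 in TAC+JP2NT libraries and 511, 459, 488 and 564 in TAC+GFP libraries. It had 601, 628 and 667 in Sham+JP2NT libraries, against 767, 716 and 621 in Sham+GFP libraries. It fell by 0.47 in TAC+GFP relative to Sham+GFP (95% interval -0.68 to -0.26, adjusted p = 0.00134), with no overlap, as in 53.1% of all genes tested. In TAC+JP2NT minus Sham+JP2NT it was -0.17 (95% interval -0.41 to 0.075, adjusted p = 0.284), with overlapping groups. The difference between these effects was 0.31 (adjusted p = 0.465) and did not pass. Sirt3 shares both ends with neighbouring genes, Ric8a and Psmd13 on the other strand, so counting without strand could have mixed their reads.

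Sirt1 (chromosome 10, 63319005 to 63381704, minus strand), a nuclear deacetylase, had 124, 139, 135 and 176 in TAC+JP2NT libraries and 114, 129, 128 and 136 in TAC+GFP libraries. It had 131, 150.4 and 172 in Sham+JP2NT libraries and 115.1, 115.3 and 122 in Sham+GFP libraries. Neither overload comparison passed, at 0.10 in TAC+GFP minus Sham+GFP (adjusted p = 0.510) and -0.13 in TAC+JP2NT minus Sham+JP2NT (adjusted p = 0.517). All Sham+JP2NT libraries were above all Sham+GFP libraries, a pattern that 29.9% of all genes tested had in this comparison in either direction. The difference was 0.40 (95% interval 0.085 to 0.72, adjusted p = 0.997).

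**Figure D3:**
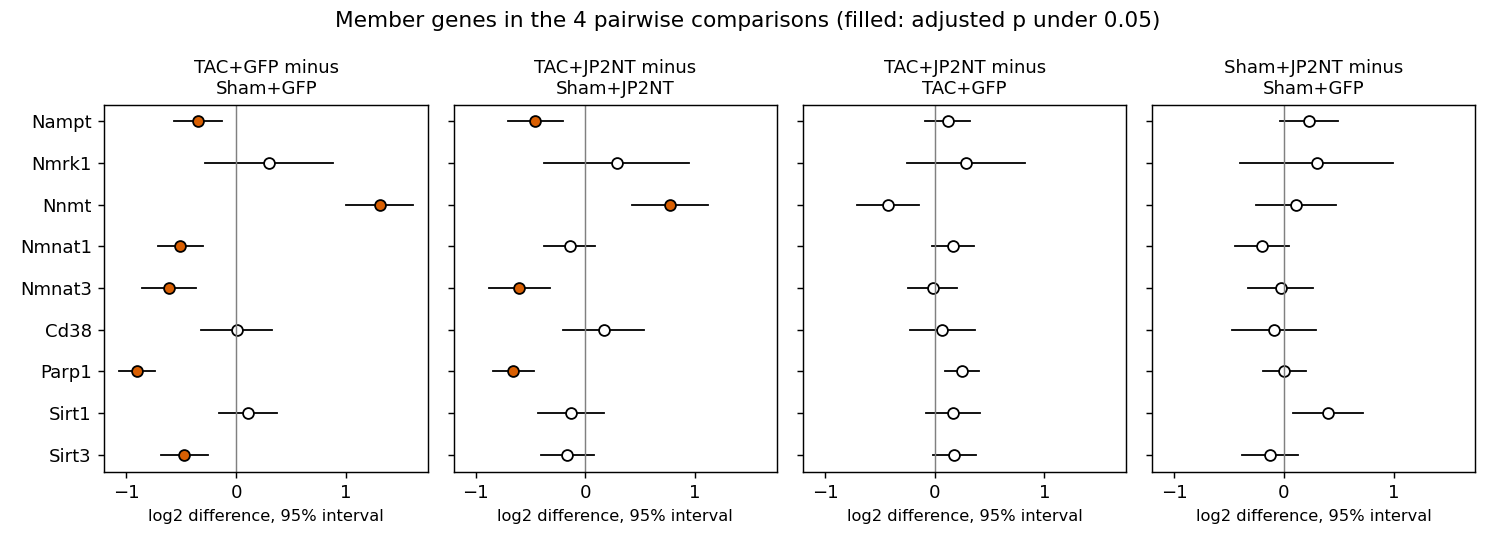
Log2 differences of the 9 other genes with 95% intervals in the 4 pairwise comparisons. Filled points passed an adjusted p under 0.05: 6 in TAC+GFP minus Sham+GFP, 4 in TAC+JP2NT minus Sham+JP2NT and none in the 2 comparisons of vectors.

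Between the vectors after TAC, 0 of the 9 members passed by limma, with 6.02% of all genes called, and 2 had an unadjusted p under 0.05. Nnmt was at -0.42 in TAC+JP2NT minus TAC+GFP (95% interval -0.71 to -0.14, adjusted p = 0.0723). Parp1 was at 0.25 (95% interval 0.097 to 0.40, adjusted p = 0.0529). Both had groups that did not overlap, as 10.7% of all genes had. Of the 796 genes called in this comparison 363 were higher, but with values as deposited, without joint rescaling, 226 of 1417 were. Nnmt was then called (-0.51, adjusted p = 0.0270) and Parp1 was not, and the call of either gene moved with the setting. The comparison shares the TAC+GFP libraries with TAC+GFP minus Sham+GFP, where Nnmt was at 1.31 and Parp1 at -0.90.

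The other members after TAC differed between JP2NT and GFP by 0.29 for Nmrk1 (95% interval -0.25 to 0.82), 0.12 for Nampt (-0.087 to 0.32), 0.17 for Nmnat1 (-0.023 to 0.36), 0.18 for Sirt3 (-0.019 to 0.38), 0.17 for Sirt1 (-0.078 to 0.41) and 0.072 for Cd38 (-0.23 to 0.37). None of these intervals excludes 0, and none by itself shows that the vectors acted alike. In the sham hearts 0 of the 9 members were called by limma, with 0% of all genes called, although 567 genes of the 13212 had an unadjusted p under 0.05, Sirt1 the only member among them. For the interaction 0 of the 9 tested members were called, with 0.0757% of all genes called (0.0378% in each direction), and Nmnat1 and Nnmt (-0.54, adjusted p = 0.361) had an unadjusted p under 0.05.

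A wider list of 55 NAD genes, all present in the table, was set beside the 10, of which 46 were tested. Of these 46, 10 rose and 16 fell in TAC+GFP relative to Sham+GFP, with a median of -0.15, where 23.3% of all genes tested were called as higher and 24.8% as lower. In TAC+JP2NT relative to Sham+JP2NT 8 rose and 12 fell, with a median of -0.14, where 16.1% of all genes were called as higher and 15.8% as lower. Of the 26 called under GFP, 25 had the same sign under JP2NT and 19 were called there, beside 95% and 55.2% of all genes called under GFP. Without Sham+JP2NT replicate 3 the count under JP2NT was 12 in place of 20; that fit leaves 1 averaged Sham+JP2NT sample, assumed to vary like the other groups. In the de novo pathway from tryptophan 7 of 9 genes were not tested: Tdo2 was at 0 in every library and Ido1, Ido2, Kynu, Haao, Acmsd and Qprt did not exceed 7.48.

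Of 7 genes of phosphorylation, transhydrogenation and transport, 6 fell in TAC+GFP relative to Sham+GFP, beside 24.8% of all genes, and 3 fell in TAC+JP2NT relative to Sham+JP2NT, beside 15.8%. Slc25a51, which carries NAD into mitochondria, had 914, 1021, 878 and 967 in TAC+JP2NT libraries and 849, 754, 789.8 and 803 in TAC+GFP libraries. It had 966, 1051 and 1027 in Sham+JP2NT libraries and 1066, 1048 and 1042 in Sham+GFP libraries. It fell by 0.40 in TAC+GFP relative to Sham+GFP (adjusted p = 0.000188) and rose by 0.24 in TAC+JP2NT relative to TAC+GFP (95% interval 0.11 to 0.37, adjusted p = 0.0309). That second call was lost without any of TAC+GFP replicate 2 (adjusted p = 0.105), TAC+JP2NT replicate 2 (0.0898) or TAC+JP2NT replicate 4 (0.0525). It was also lost with values as deposited (0.106), with a spread estimated per group (0.0544) and with only the groups compared in the fit (0.116). Slc29a1, the equilibrative nucleoside transporter, averaged 801 ± 65.1 in TAC+JP2NT and 683 ± 59.0 in TAC+GFP (SD, n = 4 each). It averaged 1032 ± 19.0 in Sham+JP2NT (SD, n = 2) and 1020.4 ± 37.6 in Sham+GFP (SD, n = 3), and fell by 0.58 under GFP (adjusted p = 4.72e-05) and by 0.37 under JP2NT (adjusted p = 0.00751).

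Naprt, which starts NAD synthesis from nicotinic acid, fell under both vectors, by 0.82 in TAC+GFP relative to Sham+GFP (adjusted p = 2.38e-05) and by 0.67 in TAC+JP2NT relative to Sham+JP2NT (adjusted p = 0.000912). It overlaps Eef1d on the same strand, so reads could be split between them. Afmid, the kynurenine formamidase, had 103, 101, 98.3 and 106 in TAC+JP2NT libraries and 78.2, 67.7, 72.1 and 57.8 in TAC+GFP libraries. It had 135, 141 and 126 in Sham+JP2NT libraries and 135, 159.7 and 151 in Sham+GFP libraries. It fell by 1.10 in TAC+GFP relative to Sham+GFP (adjusted p = 5.97e-06) and rose by 0.57 in TAC+JP2NT relative to TAC+GFP (95% interval 0.33 to 0.80, adjusted p = 0.00933), a call lost with only the groups compared in the fit (adjusted p = 0.0550). Its groups did not overlap after TAC, as in 10.7% of all genes tested. Afmid overlaps Gm20708 on its own strand and Tk1 on the other, and its count is uncertain for that reason. Pnp, which cleaves nicotinamide riboside, rose by 0.82 and by 0.60 under GFP and JP2NT (adjusted p = 5.9e-05 and 0.0041) but overlaps the near-identical Pnp2 and is likewise uncertain.

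Of the glycohydrolases and ectoenzymes that process NAD and its products, 3 of 3 tested (Nt5e, Enpp1 and Bst1) rose under each vector, beside 23.3% of all genes under GFP and 16.1% under JP2NT. Nt5e, which encodes the 5′-nucleotidase CD73, had 322, 342, 395 and 332 in TAC+JP2NT libraries and 649.8, 722.5, 519.8 and 447 in TAC+GFP libraries. It had 175, 153 and 137 in Sham+JP2NT libraries and 132, 167 and 148 in Sham+GFP libraries. It rose by 1.95 in TAC+GFP relative to Sham+GFP (adjusted p = 2.99e-07) and by 1.20 in TAC+JP2NT relative to Sham+JP2NT (adjusted p = 0.000185), and it fell by 0.73 in TAC+JP2NT relative to TAC+GFP (95% interval -1.02 to -0.44, adjusted p = 0.00795). Enpp1, which hydrolyses nucleotides outside the cell, averaged 186 ± 45.1 in TAC+JP2NT and 219 ± 19.5 in TAC+GFP (SD, n = 4 each), against 72.1 ± 9.83 in Sham+JP2NT (SD, n = 2) and 79.1 ± 2.82 in Sham+GFP (SD, n = 3). It rose by 1.45 under GFP and by 1.33 under JP2NT (adjusted p = 6.37e-06 and 0.000164). The activated fibroblast sums and the epicardial and mesothelial sums given for Nnmt rose after TAC with both Nt5e and Enpp1. In TAC+JP2NT relative to TAC+GFP 4 of the 6 activated fibroblast markers fell, as Nt5e did. Of the 4 epicardial and mesothelial markers 1 fell there, beside 3.28% of all genes. Enpp1 was there at -0.26 by limma (95% interval -0.57 to 0.051, adjusted p = 0.316), with overlapping groups. The part of these cells in either gene was not tested.

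**Figure D4:**
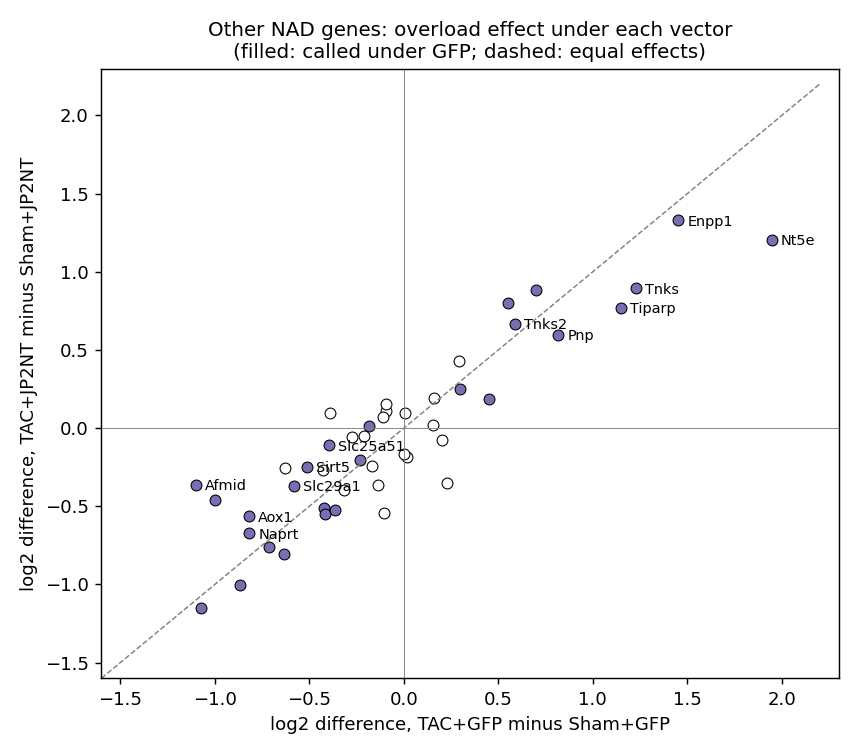
Overload differences (log2) of the 46 tested genes of the wider list, TAC+GFP minus Sham+GFP on the horizontal and TAC+JP2NT minus Sham+JP2NT on the vertical axis. Filled points were called under GFP, and 25 of those 26 had the same sign under JP2NT; Nt5e and Enpp1 lie at the upper right and Afmid at the left.

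Of the 14 other PARP family genes, 4 rose and 2 fell in TAC+GFP relative to Sham+GFP, and 3 rose and 1 fell in TAC+JP2NT relative to Sham+JP2NT. These counts are near the shares of all genes called, 48.1% under GFP and 31.9% under JP2NT. Tnks and Tnks2, the tankyrases, and Tiparp, a mono-ADP-ribosyltransferase, were 3 that rose under both vectors. Tnks averaged 556 ± 134 in TAC+JP2NT and 696 ± 40.0 in TAC+GFP (SD, n = 4 each), against 292 ± 26.5 in Sham+JP2NT (SD, n = 2) and 296 ± 15.4 in Sham+GFP (SD, n = 3). It rose by 1.23 under GFP and by 0.89 under JP2NT (adjusted p = 1.49e-05 and 0.00148). Tiparp rose by 1.15 and by 0.77 (adjusted p = 3.53e-05 and 0.00456), and Tnks2 by 0.59 and by 0.67 (adjusted p = 0.000147 and 0.000463). These members of the family thus moved the other way from Parp1.

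Of the 5 sirtuins outside the 10 genes, 1 fell in TAC+GFP relative to Sham+GFP. Sirt5, the mitochondrial desuccinylase, fell by 0.51 (adjusted p = 9.25e-05) and under JP2NT by 0.25 (adjusted p = 0.0440), a call lost in 7 of the 14 fits that left out 1 library. Sirt2, Sirt4, Sirt6 and Sirt7 passed neither overload test. Of the 4 ADP-ribosyltransferases, 3 fell under GFP and 4 under JP2NT, beside 24.8% and 15.8% of all genes. In clearance, Aox1, which oxidises methylnicotinamide, the product of Nnmt, fell by 0.82 in TAC+GFP relative to Sham+GFP (adjusted p = 5.66e-05) and by 0.56 in TAC+JP2NT relative to Sham+JP2NT (adjusted p = 0.00538).

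Between the vectors after TAC, 2 genes of the wider list rose (Afmid and Slc25a51) and 1 fell (Nt5e), of 46 tested, beside 2.75% of all genes called as higher and 3.28% as lower. Without TAC+JP2NT replicate 3 the count was 5. Between the sham groups 0 of 46 passed by limma and 2 had an unadjusted p under 0.05. For the interaction 0 of 46 passed and 6 had an unadjusted p under 0.05, the smallest adjusted p being 0.147.

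The 5 tested genes nearest to Nmrk2, by mean absolute difference in log2 value relative to the Sham+GFP mean over the 13 samples, were Gdf15 (0.63), Star (0.70), Ltbp2 (0.71), Dio2 (0.72) and Cxcr6 (0.74). The samples share surgery and vector groups, so a likeness of this kind is a description with no test. In sham samples Cxcr6 had only 0.83 to 3.98, Gdf15 5.20 to 8.68 and Star 4.17 to 10.6. These genes passed the filter on low values through the TAC samples. Their log2 values relative to sham, and so their rank, depend in part on the 1 added to each value. Gdf15, a stress-induced cytokine, had 62.4, 56.8, 162 and 19.6 in TAC+JP2NT libraries and 158, 142, 57.7 and 284 in TAC+GFP libraries. TAC+GFP replicate 3 was its lowest there, as for Nmrk2. Star, a mitochondrial cholesterol carrier, had 29.5 to 137 in TAC+JP2NT libraries, 203 in TAC+GFP replicate 3 and 250 to 424 in TAC+GFP replicates 1, 2 and 4. For Ltbp2, Dio2 and Cxcr6 the highest TAC+JP2NT values were 866, 199 and 35.8, and TAC+GFP replicate 3 lay above them at 1056, 234.5 and 77.1. Gdf15 differed from Nmrk2 in that TAC+GFP replicates 1 and 2 also lay inside its TAC+JP2NT range, and for Ltbp2 TAC+GFP replicate 4, at 858, lay below the highest TAC+JP2NT library.

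**Figure D5:**
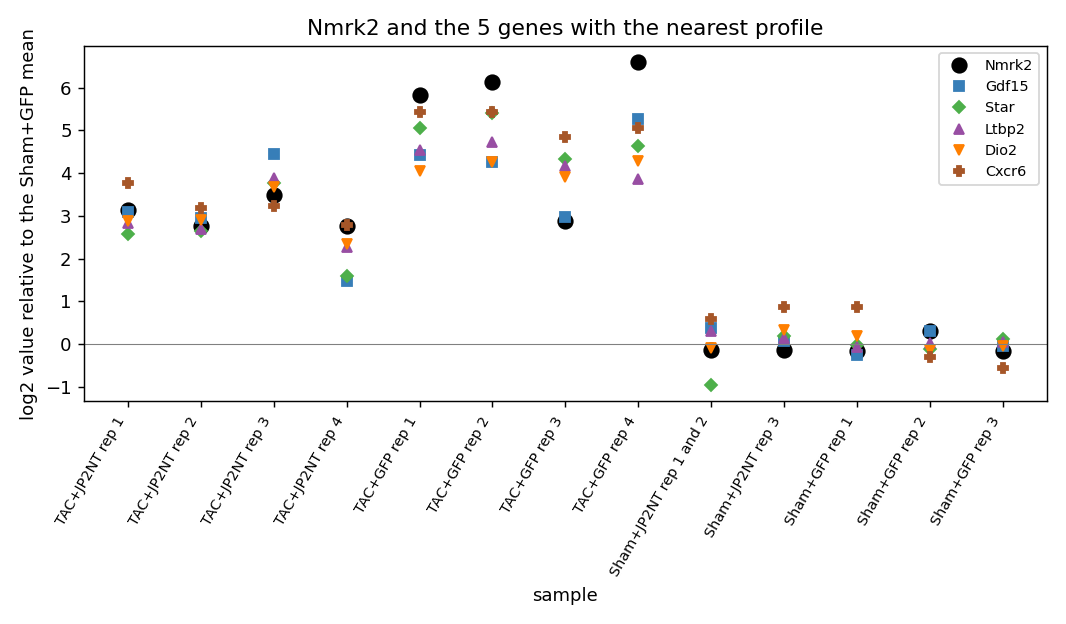
Log2 values of Nmrk2 and the 5 nearest genes relative to the Sham+GFP mean, in each of the 13 samples (replicates 1 and 2 of Sham+JP2NT averaged). In TAC+GFP replicate 3 Nmrk2 and Gdf15 sit at 2.89 and 2.98, below the other 4 genes.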

How the data were processed

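Polyadenylated RNA of mouse ventricles was sequenced in 14 libraries. The submitters' processing notes name FastQC 1.0.0, STAR 2.6.1a, Salmon and build mm10. How reads were assigned to strands, which annotation served and what scaled the counts is not stated in those notes. The deposited table holds a signal, that is, gene counts that the authors divided by scale factors, separately for the 7 GFP and the 7 JP2NT libraries, as the values show. Divided by the value of 1 read, 1.63% (GFP) and 1.85% (JP2NT) of values lie within 0.001 of a whole number, so whole reads could not be recovered and no count model was used.

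Values were rescaled jointly by unweighted trimmed means of log ratios (30% of ratios and 5% of levels trimmed). A gene entered the test with 10 or more in 3 or more samples, on log2(value + 1) with limma-trend (limma 3.58.1, R 4.3.3), 1 mean per group and 1 spread for all (degrees of freedom 9 residual, 5.73 prior). Within groups the median SD was 0.176 in TAC+JP2NT and 0.158 in TAC+GFP, against 0.083 in Sham+JP2NT and 0.107 in Sham+GFP, so a shared spread understates that of most genes after TAC. Tests are two-sided, with Benjamini-Hochberg adjustment within a comparison and a threshold of 0.05. There were 5 comparisons: the effect of surgery within each vector, that of the vector within each surgery, and their interaction. The script was tested on simulated data.

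The genes, lists and comparisons were chosen with earlier results of these data known. Of the wider list, the text names the genes called between vectors or in the interaction and the 12 with the smallest adjusted p in the overload comparisons; the 5 genes nearest to Nmrk2 are named too. Other genes of the list, the markers and the genes given for TAC+GFP replicate 3 were chosen after their values were seen or for a marker list. No label ties a library to a mouse of its own, so p-values measure the spread between these libraries. Same-numbered libraries did not deviate together (19 pairs, correlations -0.17 to 0.076), so numbers were not taken as pairs. Alternatives were the scaling, pseudocount, filter, near-identical libraries, spread, samples in the fit, replicate block and leaving out each library.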

Additional observations from a re-analysis of the deposited data

Results flagged for a closer look

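Of 44 groups of 4 libraries checked (22 genes), 3 held a library whose gap to the nearest other, divided by the group's range, was above 0.829; chance gives about 1 in 20 such groups. All 3 were in TAC+GFP. Nmnat3 had 185 in replicate 3, against 228 to 235 in the others (gap over range 0.861). Pnp had 451 in replicate 3, against 353 to 366 (0.867). Tnks had 755 in replicate 2, against 671 to 682 (0.860). Nmrk2 itself was not past this limit in TAC+GFP, because its other 3 libraries were also spread widely.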

How the results depend on the processing

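The count of members called in TAC+JP2NT minus TAC+GFP, 0, was 1 with values as deposited (Nnmt), with a filter of 50 (Parp1, adjusted p = 0.0482) and with 14 separate libraries (Parp1, adjusted p = 0.0382). With 14 separate libraries the wider list had 1 call in the interaction, against 0. With only the groups compared it had 1 call between vectors after TAC, against 3; Afmid was then at an adjusted p of 0.0550. Leaving out each library gave 12 to 23 calls for the wider list in TAC+JP2NT minus Sham+JP2NT (20 with all; lowest without Sham+JP2NT replicate 3) and 2 to 5 in TAC+JP2NT minus TAC+GFP (3 with all). Members called ranged from 5 to 6 under GFP and 4 to 5 under JP2NT. The cause of these moves was not tested. No other count of calls moved by over 1.5 times.

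With values as deposited, 2 uncalled differences changed sign: Cd38 in TAC+JP2NT minus TAC+GFP to -0.011 and Parp1 in Sham+JP2NT minus Sham+GFP to -0.072. The interaction of Nmnat3 was -0.0075 with 14 separate libraries and with the replicate block. The replicate block was fitted with 14 separate libraries. It called 6, 0, 4, 0 and 0 members in TAC+GFP minus Sham+GFP, TAC+JP2NT minus TAC+GFP, TAC+JP2NT minus Sham+JP2NT, the sham comparison and the interaction, where 14 separate libraries without the block called 6, 1, 4, 0 and 0. Leaving out a library turned the sign of uncalled differences whose ranges span 0. In TAC+GFP minus Sham+GFP Cd38 ran from -0.064 to 0.058. In TAC+JP2NT minus TAC+GFP Cd38 ran from -0.026 to 0.24 and Nmnat3 from -0.10 to 0.036. In TAC+JP2NT minus Sham+JP2NT Nmrk1 ran from -0.13 to 0.36 and Sirt1 from -0.23 to 0.013. In Sham+JP2NT minus Sham+GFP Parp1 ran from -0.012 to 0.027, Nmrk2 from -0.27 to 0.018, Nmnat3 from -0.11 to 0.044 and Nnmt from -0.057 to 0.23. In the interaction Nmrk1 ran from -0.43 to 0.12 and Nmnat3 from -0.071 to 0.089.

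Without Sham+JP2NT replicate 3, Pnp, Aox1 and Slc29a1 were no longer called under JP2NT (adjusted p = 0.0775, 0.0561 and 0.0517); that fit has 1 averaged Sham+JP2NT sample and takes the spread from the other groups. Nmrk1 and the sham values of Nmrk2 rest on few reads, which limits their precision.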
